A study of Callithrix jacchus with 71 samples.

Results

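MEIS and PBX proteins are homeodomain transcription factors of the TALE class, which carry extra residues in the first loop of the homeodomain, and they are the best known DNA-binding partners of HOX proteins. PBX proteins join HOX proteins of the anterior and central groups on DNA through a short motif in the HOX protein. MEIS proteins bind PBX proteins and posterior HOX proteins, and MEIS binding also holds PBX proteins in the nucleus. In the embryo both families act in the hindbrain and spinal cord, where HOX genes set position along the body axis. Of these families, 6 genes were taken by name from the table of normalized counts, namely *MEIS1*, *MEIS2*, *MEIS3*, *PBX2*, *PBX3* and *PBX4*. *PBX4* had no row in the table used here and was not analysed, so 5 of 6 members were measured, among 23561 named genes in all.

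The cells are from the common marmoset and were sequenced one by one with RamDA-seq, a method that copies total RNA and covers transcripts over their whole length. The table holds 65 induced neural stem cell-like cells (iNSLCs) of the clone E01F A-2 at early passage, 4 ESCs of the line no. 40, 1 iPSC of the line E01F A-2-2 and 1 E01F fibroblast. The fibroblasts came from the dorsal skin of a marmoset embryo, and the iNSLCs were induced from them with episomal vectors for OCT4, SOX2, KLF4, L-MYC, LIN28, a dominant-negative mouse p53 and EGFP in a medium used earlier for putative naive-state pluripotent cells (NSM). The iNSLCs still carried the vectors, while the iPSC line, derived from the same clone, was free of them. The ESCs and the iPSC are pooled as pluripotent stem cells (PSCs), which gives 5 PSC cells.

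Each group has a single source in the sample labels and was counted as 1 culture. Cells of a culture are not replicates, so no test between groups was made, and each mean ± SD describes the cells of that culture. Fold differences are on normalized counts, the reads of a cell divided by a factor of that cell, and log2 ratios were taken after 1 was added to each mean, which lowers the ratio of weak genes. A gene is said to differ by 2-fold or more where this log2 ratio is at least 1 in size. A cell counts as detecting a gene at 1 read. The iNSLCs had 82268 to 695241 reads on genes (median 268128), the PSC cells 134328 to 1003718, and the fibroblast 1294430. Because 1 read stood for 0.441 to 2.84 normalized counts in iNSLCs, 0.405 to 2.55 in PSC cells and 0.405 in the fibroblast, a 0 in a shallow cell says less than a 0 in a deep one. No gene length was used, so levels are compared between cells and never between genes.

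The labels fitted most of their markers. The 12 PSC markers summed to 0 to 32.6 normalized counts in iNSLCs, 656 to 2367 in PSC cells and 5.26 in the fibroblast, and *TDGF1*, *UTF1*, *CDH1* and *PRDM14* had no read in any iNSLC. The 11 neural stem cell markers summed to 1312 to 8699 in iNSLCs and to 123 to 233 in PSC cells. They summed to 7279 in the fibroblast, where the filament gene *VIM* alone gave 7161. Only 4 of the 11 markers had a read there, with *SOX2*, *PAX6*, *SOX1* and *HES5* at 0. *VIM* also weighed heavily in the other sums, at 670 to 7552 in iNSLCs and 0.810 to 15.3 in PSC cells. *NES* overlapped, at 46.9 to 545 in iNSLCs and 75.9 to 207 in PSC cells. *PAX6*, *HES5*, *POU3F2* and *NR2F1* had no read in PSC cells. *SOX2* was also a vector gene. The 9 fibroblast markers summed to 0 to 1093 in iNSLCs, 164 to 518 in PSC cells and 26737 in the fibroblast. Most of the fibroblast sum came from *COL1A1* at 9769, *COL1A2* at 11345 and *COL3A1* at 5228, while *LUM* was at 2.43. *FBLN1* went the other way, at 0.809 in the fibroblast, 56.6 to 304 in PSC cells and up to 156 in iNSLCs.

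All 5 measured members were transcribed in the iNSLC culture. Of the 65 iNSLCs, 64 had at least 1 read of each member and 1 cell lacked only *PBX3*. Means over iNSLCs exceeded those over PSC cells by 2-fold or more for *MEIS1*, *MEIS2*, *MEIS3* and *PBX3*, 4 of 5 members, and none was lower by that much. Of 14978 genes whose mean over both groups reached 1, 14.9% were higher in iNSLCs by 2-fold or more and 30.1% were lower. *MEIS1*, with no PSC read, and *MEIS2*, with a PSC mean of 0.833, reached that mean only through the iNSLCs. The median log2 ratio of iNSLCs over PSC cells was 2.01 over the members and -0.34 over all genes. Against the fibroblast, *MEIS1* and *MEIS3* were higher in iNSLCs by 2-fold or more, 2 of 5 members, where 23.4% of 13933 genes were higher and 27.4% lower. Both had no read in the fibroblast and passed the same filter through the iNSLCs.

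These counts depend partly on how the cells were scaled. When every cell was scaled to the median total, 4 of 5 members were again past 2-fold over PSC cells. All genes then moved up by a median of 0.28 on the log2 scale over PSC cells and by 0.72 over the fibroblast, and 4 of 5 members passed 2-fold over the fibroblast, where 38.0% of 13464 genes then did. Of the genes past 2-fold in either direction, the share that was higher in iNSLCs went up to 45.3% with this scaling, against 33.1% without, over PSC cells. Over the fibroblast it was 72.6% with this scaling and 46.1% without. Differences from the fibroblast are therefore read against that shift.

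**Figure D1:**
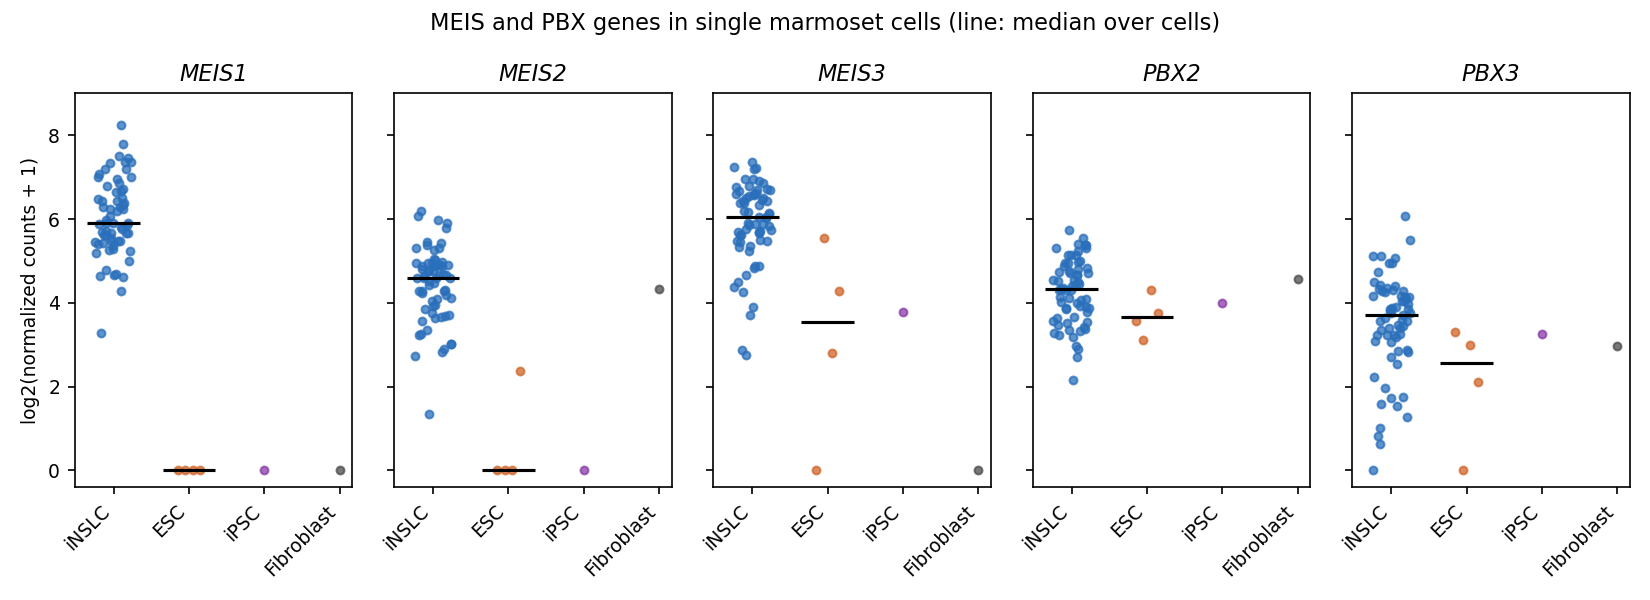
The y axis gives normalized counts, as log2 after 1 was added, of the 5 measured members in iNSLCs, ESCs, the iPSC and the fibroblast (x axis), with 1 point per cell and a line at the median of the cells of a group. *MEIS1* lies above 0 in all 65 iNSLCs and at 0 in all 6 other cells, while *PBX2* lies above 0 in all 71 cells.

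*MEIS1*, which is best known from blood stem cells and leukaemia and also acts in the developing nervous system, parted the iNSLCs completely from the other cells. It ranged from 8.67 (cell 32, 4 reads) to 302 normalized counts (cell 45, 307 reads) over the iNSLCs, with a median of 59.2. All 65 iNSLCs had a read (95% confidence interval 94.5% to 100%, exact Clopper-Pearson, counting error only). ESCs 10, 11, 12 and 14, iPSC 19 and the fibroblast each had 0 normalized counts. Every iNSLC therefore lay above every other cell.

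The mean of *MEIS1* was 79.0 ± 54.0 normalized counts in iNSLCs (SD over 65 cells of 1 culture). Set against a floor of 3 reads over the PSC cells, which is 0.648 normalized counts at their average value of 1 read, this was 122-fold higher. The bound is not strict, since 1 read stood for 2.55 normalized counts in ESC 11, and unseen reads there would lower it. Leaving out any 1 PSC cell gave bounds of 84.4-fold to 148-fold, the last of these without ESC 11. Against the floor of 3 reads in the fibroblast, 1.21 normalized counts, the iNSLC mean was at least 65.1-fold higher. The iNSLCs held 5266 reads of *MEIS1* in 18683926, and the PSC cells held none in 2637699. With 3 cells of the total as the limit, 0 of 5 PSC cells allows a share of up to 60% of cells with a read (the exact Clopper-Pearson limit is 52.2%), so the bound allows for counting error and not for a rare cell with many reads.

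Few genes had this pattern. Only 34 genes, 0.227% of those tested, had every iNSLC above every PSC cell, and *MEIS1* was the only member among them. A read in every iNSLC was more common, at 10.9% of genes, and 4 of 5 members had it. A read in every iNSLC and in no other cell was found for 5 genes, or 0.0334%. These are *MEIS1*, the neural POU factor gene *POU3F2*, the ciliary neurotrophic factor receptor gene *CNTFR*, the endocytic receptor gene *LRP2* and the neuronal adhesion gene *NRCAM*, and *LRP2* and *NRCAM* were named after their values were seen.

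*MEIS2*, which acts in the eye, the cranial neural crest and the striatum, was high in iNSLCs and in the fibroblast. Over the iNSLCs it ranged from 1.53 (1 read in cell 75) to 72.5 normalized counts, with a median of 23.1. ESC 14 had 4.17 normalized counts from 5 reads, ESCs 10, 11 and 12 and the iPSC had 0, and the fibroblast had 19.0 from 47 reads. All but 1 of the iNSLCs were above ESC 14. The fibroblast lay inside the iNSLC range, with 38 iNSLCs above it and 27 below.

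The mean of *MEIS2* was 24.6 ± 14.8 normalized counts in iNSLCs, against 0.833 in PSC cells, and the log2 ratio was 3.80 (29.5-fold). The PSC mean came from ESC 14 alone. Without that cell the PSC cells had no read, and the iNSLC mean was at least 28.7-fold higher. Over the fibroblast the log2 ratio was 0.35 (1.29-fold), below 2-fold, and it was 1.11 with every cell scaled to the median total. The fibroblast is a single cell, so its own spread is unknown.

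*MEIS3*, which in *Xenopus* is required for hindbrain formation, was read in iNSLCs and in most PSC cells but not in the fibroblast. It ranged from 5.75 to 163 normalized counts over the iNSLCs (median 65.3), with a read in all 65. The ESCs 10, 11, 12 and 14 had 0, 46.0, 5.94 and 18.3 normalized counts, the iPSC had 12.8 and the fibroblast had 0. The highest PSC value belonged to the shallowest of these cells, ESC 11, and rested on 18 reads. The groups overlapped, with 47 iNSLCs above ESC 11 and 18 not.

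The mean of *MEIS3* was 69.9 ± 37.3 normalized counts in iNSLCs and 16.6 ± 17.8 in PSC cells (5 cells of 2 cultures), a log2 ratio of 2.01 (4.21-fold). ESC 11 decided the size of this ratio. Without it the PSC mean was 9.27 and the iNSLCs were 7.54-fold higher, while without any other PSC cell the fold was 3.37 to 4.32. Over the fibroblast, *MEIS3* was at least 57.6-fold higher in iNSLCs, and all 65 iNSLCs were above it.

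*PBX2*, a broadly expressed partner of MEIS and HOX proteins, differed least between the groups. Over the iNSLCs it ranged from 3.48 to 52.7 normalized counts, with a median of 19.2. ESCs 10, 11, 12 and 14 had 10.9, 7.66, 18.9 and 12.5, the iPSC had 14.96 and the fibroblast had 22.7. Every one of the 71 cells had a read. The iNSLC range enclosed all 6 other cells, with 33 iNSLCs above the highest PSC cell and 4 below the lowest.

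Its mean was 21.0 ± 11.1 normalized counts in iNSLCs and 12.99 ± 4.23 in PSC cells. The log2 ratio was 0.65 (1.62-fold), below the 2-fold limit. Over the fibroblast it was -0.11 (0.927-fold), and this sign turned with the scaling, since it was 0.66 with every cell scaled to the median total, where the median of all genes was 0.58.

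*PBX3*, which in mice is needed for the brainstem neurons that drive breathing, was the weakest of the 4 members past 2-fold over PSC cells. It ranged from 0 to 66.1 normalized counts over the iNSLCs, with a median of 12.1, and 64 of 65 cells had a read (98.5%, interval 91.7% to 99.96%). The cell with none was iNSLC 92. ESCs 10, 11, 12 and 14 had 8.91, 0, 7.02 and 3.33, the iPSC had 8.55 and the fibroblast had 6.88. There were 42 iNSLCs above the highest PSC cell and 49 above the fibroblast.

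The mean of *PBX3* was 13.9 ± 11.3 normalized counts in iNSLCs, against 5.56 ± 3.81 in PSC cells, and the log2 ratio was 1.18 (2.49-fold). This lay close to the limit. Without ESC 11, which had no read, the log2 ratio was 0.90, and it was 0.71 with medians over cells in place of means and 0.62 with a pseudocount of 10. In these 3 cases 3 of 5 members were past 2-fold. Over the fibroblast the log2 ratio of *PBX3* was 0.92, under the limit although the means differ 2.02-fold, or 1.59 with every cell scaled to the median total.

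The order of the groups thus differed from member to member. For *MEIS1* iNSLCs were above PSC cells and fibroblast alike, both at 0. For *MEIS2* the iNSLC mean and the fibroblast lay together above the PSC cells. For *MEIS3* the iNSLC mean came first and the PSC mean second, while the fibroblast was at 0, as was ESC 10. For *PBX2* the spread of the cells covered all differences, and for *PBX3* the PSC cells and the fibroblast both lay within the iNSLC range. In these comparisons iNSLCs and the iPSC share a donor, while the ESCs come from another line.

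The members varied among iNSLCs by more than read counting alone gives. For *MEIS1* the coefficient of variation over iNSLCs was 0.684, and counting error alone would give 0.124. The same values were 0.602 and 0.229 for *MEIS2*, and 0.533 and 0.142 for *MEIS3*. They were 0.529 and 0.255 for *PBX2*, and 0.811 and 0.303 for *PBX3*. No such values over all genes are set beside these, so the excess is not read as particular to the members. Amplification of single-cell RNA adds noise of its own, whose size was not measured here. Among iNSLCs the pairs of members were loosely related at most. Over 65 cells, Pearson's r of the log2 values was 0.26 for *MEIS1* with *MEIS2*, 0.23 for *MEIS1* with *PBX2*, 0.23 for *MEIS2* with *PBX3*, 0.22 for *MEIS2* with *MEIS3* and -0.28 for *PBX2* with *PBX3*. The other 5 pairs lay between -0.07 and 0.13. Over 6113 other genes, the 5th to 95th percentiles of r were -0.24 to 0.25 for *MEIS1* and -0.19 to 0.24 for *MEIS2*. They were -0.20 to 0.24 for *PBX2* and -0.20 to 0.22 for *PBX3*. *MEIS1* with *MEIS2* lay just above these ranges and *PBX2* with *PBX3* below them. *MEIS2* with *PBX3* passed only the range of *PBX3*. All values of a cell share its library and depth, so these are descriptions with no test.

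Part of this depended on the number in the sample label. There were 27 iNSLCs with a number up to 56 and 38 with a number from 57 on, set apart by a boundary drawn after the profiles of these cells had been seen, and the labels do not say what the numbers stand for beyond the cell. The r of *MEIS1* with *MEIS2* was 0.50 in the first set and -0.01 in the second. That of *PBX2* with *PBX3* kept its sign, at -0.32 and -0.22. The mean of *MEIS1* was 97.9 ± 65.8 normalized counts in the cells numbered 56 or below and 65.6 ± 39.6 in those numbered 57 or above, a log2 ratio of 0.57.

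*MEIS3* went the other way. Its mean was 55.5 ± 35.0 in the cells numbered 56 or below and 80.1 ± 35.9 in those numbered 57 or above, a log2 ratio of -0.52, or -0.29 with every cell thinned to 100000 reads. The log2 ratios of *MEIS2*, *PBX2* and *PBX3* were 0.22, 0.03 and 0.29. Over all genes the median was -0.13 and the 5th to 95th percentiles were -1.14 to 1.08, so each member lay inside the bulk of genes.

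**Figure D2:**
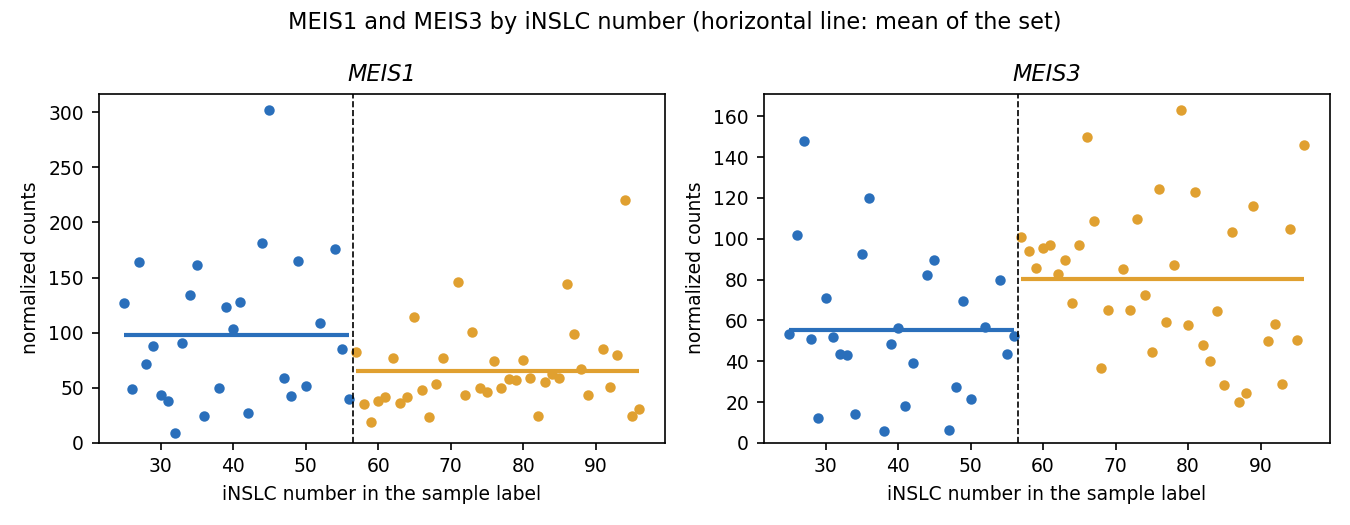
*MEIS1* on the left and *MEIS3* on the right in normalized counts (y axis) by the number that each iNSLC bears in its label (x axis), as 1 point per iNSLC with a horizontal line at the mean of each set. Left of the dashed line are 27 cells, with means of 97.9 and 55.5, and right of it 38 cells, with means of 65.6 and 80.1.

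HOX genes were widespread in iNSLCs and scarce in PSC cells. Of 31 HOX genes with a row, 29 had a read in at least 1 iNSLC, 4 in PSC cells and 20 in the fibroblast. These counts are over 65 cells, 5 cells and 1 cell, so they are not on a like footing. Some of the 29 were rare, down to *HOXA13* in 1 iNSLC. Counts of HOX genes per cell compare the groups more directly. An iNSLC had 3 to 22 HOX genes with a read (median 9, mean 10.7 ± 4.22). ESCs 10, 11, 12 and 14 had 2, 0, 0 and 3, the iPSC had 3 and the fibroblast 20. The genes found in the most iNSLCs were *HOXB2* in 60, *HOXA3* in 55, *HOXD4* in 54, *HOXB4* in 49, *HOXD8* in 45, and *HOXB3* and *HOXC4* in 43 each. They are mainly genes of the paralog groups 1 to 4, which pattern the hindbrain. Of 12 genes in groups 1 to 4, 9 were found in at least 50% of iNSLCs, against 2 of 11 in groups 5 to 8 and 1 of 8 in groups 9 to 13. No share over all genes is set beside these counts, which are a description.

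The fibroblast differed from the iNSLCs in single HOX genes as it did in MEIS genes. *HOXD4* averaged 26.0 ± 25.6 normalized counts in iNSLCs and *HOXD1* 18.8 ± 31.8, and both had no read in the fibroblast, nor had *MEIS1* and *MEIS3*. *HOXC8*, a thoracic gene, averaged 0.978 in iNSLCs, with a read in 9 cells, and was at 31.2 (77 reads) in the fibroblast. *HOXC10* had no read in iNSLCs and was at 10.1 (25 reads) in the fibroblast. The HOX genes outside the most frequent ones were chosen after their values were seen.

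None of the members had more than a weak relation with the number of HOX genes detected in the same iNSLC, taken over all iNSLCs. Over 65 iNSLCs, r of the log2 level with that number was 0.10 for *MEIS1*, 0.03 for *MEIS2*, -0.07 for *MEIS3*, 0.06 for *PBX2* and 0.04 for *PBX3*. The median over the 6118 genes whose iNSLC mean reached 10 was 0.10, with 5th to 95th percentiles of -0.19 to 0.31. Between 63.6% and 89.5% of these genes had a larger r in size than a given member. The top gene outside the HOX family was *TSHZ1*, at 0.57, named here after its value was seen. Both the levels and the HOX number can depend on depth. Over all iNSLCs the HOX number had an r of 0.10 with the log10 of reads. Cells numbered 56 or below had a median of 357910 reads and a mean of 9.70 HOX genes. Those numbered 57 or above had a median of 208746 reads and a mean of 11.3 HOX genes. The relation of the HOX number with reads within each set was not tested.

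The cells at both ends of the HOX number can be set side by side. Cell 75, with 22 HOX genes, had 45.9 normalized counts of *MEIS1*, 1.53 of *MEIS2*, 44.4 of *MEIS3*, 24.5 of *PBX2* and 16.8 of *PBX3*. Cell 78, with 3 HOX genes and nearly the same number of reads, had 58.0, 9.22, 87.0, 9.22 and 9.22 of these genes in the same order. The 3 MEIS genes were thus higher in the cell with few HOX genes, *PBX2* and *PBX3* in the cell with many.

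*MEIS2* was the member whose value moved most with the cells used. Without the 2 cells farthest from the median HOX number its r was 0.32, and cell 75, which had a single *MEIS2* read, was one of them. Its r was 0.27 with the number of HOX genes of groups 1 to 4 and -0.17 with that of groups 5 to 13. By set, it was 0.20 in cells numbered 56 or below and -0.04 in those numbered 57 or above. For *MEIS3* the values in these sets were -0.31 and -0.05.

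**Figure D3:**
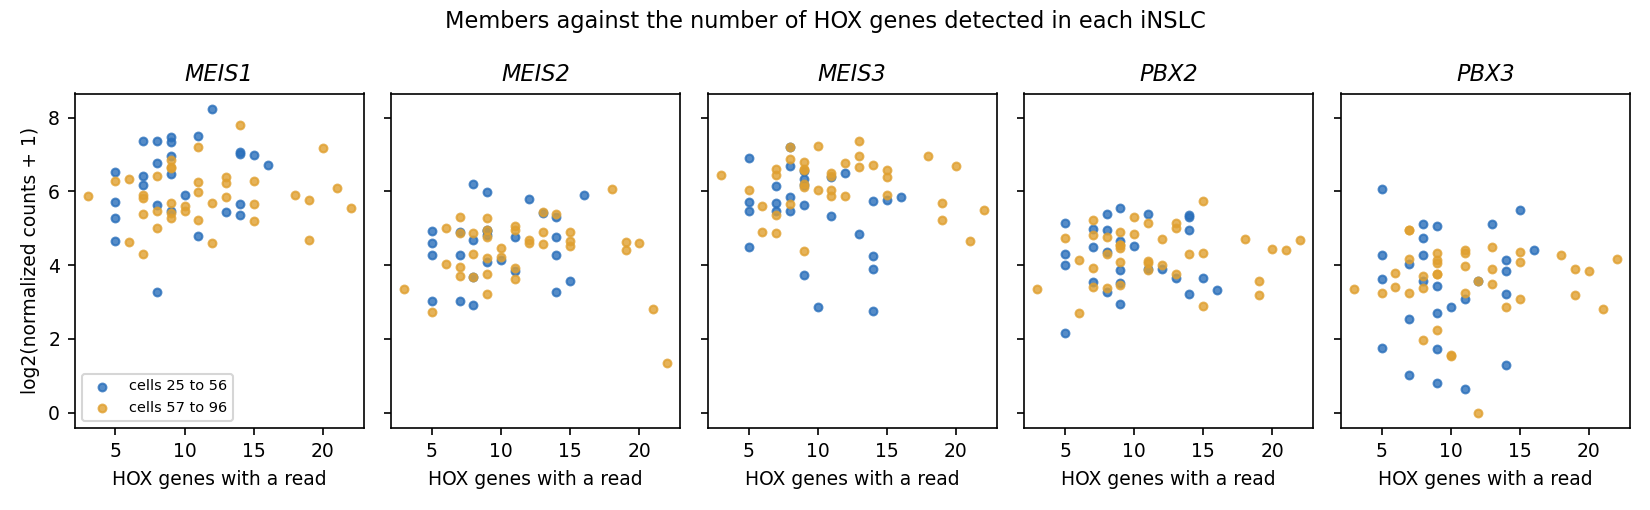
Each member as log2 of its normalized counts plus 1 (y axis) against the number of HOX genes with a read in the same cell (x axis), with 1 point per iNSLC, coloured by cell number. The clouds are flat, with r between -0.07 and 0.10 over 65 cells.

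Most pairs of a member and a single HOX gene were also weakly related. For the 12 HOX genes found in at least 50% of iNSLCs, the 60 pairs had r from -0.22 to 0.36 with a median of 0.05. The highest were *MEIS3* with *HOXC4* at 0.36, *MEIS2* with *HOXB3* at 0.35 and *MEIS1* with *HOXB4* at 0.33. After thinning to 100000 reads they were 0.20, 0.31 and 0.25. Over 6113 genes without thinning, the 95th percentile of r was 0.30 for *MEIS3*, 0.24 for *MEIS2* and 0.25 for *MEIS1*. Each of these pairs lay above it before thinning. They are the top of 60 values, and no test was made of them.

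The other TALE genes came from a list of 11. Over PSC cells, 5 of the 8 with enough reads were higher in iNSLCs by 2-fold or more and 1 was lower, where 14.9% and 30.1% of all genes were. *IRX1*, *IRX3* and *IRX5*, at 0 in PSC cells, and *IRX2*, at 0.729, passed the filter on the mean only through the iNSLCs. *MKX*, *IRX4* and *IRX6* fell below it. The same filter was used for all genes, and the counts are a description. Without ESC 12, *TGIF2* also passed 2-fold and 6 were higher. Over the fibroblast, 5 of 9 were higher and 2 lower, where 23.4% and 27.4% of all genes were. Here *PKNOX2* passed the filter through the iNSLCs and *MKX* through the fibroblast. The Iroquois genes *IRX1*, *IRX2*, *IRX3* and *IRX5*, which act in neural patterning, were found in 60, 59, 63 and 62 iNSLCs. Among PSC cells, 1 ESC had 9 reads of *IRX2*, and none had a read of the other 3.

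*IRX3* averaged 35.3 ± 27.0 normalized counts in iNSLCs, 54.6-fold over the PSC floor, and was at 6.07 in the fibroblast. *IRX5* averaged 26.5 ± 22.1 in iNSLCs, 40.9-fold over that floor, and was at 1.62 in the fibroblast. *IRX1* averaged 30.7 ± 40.1 in iNSLCs, 47.3-fold over that floor, and the fibroblast was as high, at 30.3. *IRX4* and *IRX6* had a read in only 6 and 5 iNSLCs and in no other cell.

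The TALE genes closest in function to MEIS are *PKNOX1* and *PKNOX2*, which also encode partners of PBX proteins. *PKNOX1* averaged 17.6 ± 13.7 normalized counts in iNSLCs and 22.5 ± 18.2 in PSC cells, and was at 10.9 in the fibroblast, within the iNSLC range. *PKNOX2* averaged 14.1 ± 12.4 in iNSLCs, with a read in 54 of them. Among PSC cells only the iPSC had a read, at 8.55, and the fibroblast had none, which puts the iNSLCs at least 11.6-fold above the fibroblast. The repressor gene *TGIF1*, which limits signals of the TGF-beta family, averaged 11.8 ± 8.70 in iNSLCs, against 41.5 ± 33.3 in PSC cells. The log2 ratio was -1.73, with the iPSC at 91.9 and the 4 ESCs at a mean of 28.9. It was at 32.8 in the fibroblast, above 63 of the 65 iNSLCs. *TGIF2*, its paralog, averaged 25.6 ± 13.9 in iNSLCs, against 16.6 ± 14.6 in PSC cells, and the log2 ratio was 0.60, or 1.18 without ESC 12. The iNSLC mean was 2.44-fold higher than the fibroblast, at 10.5.

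**Figure D4:**
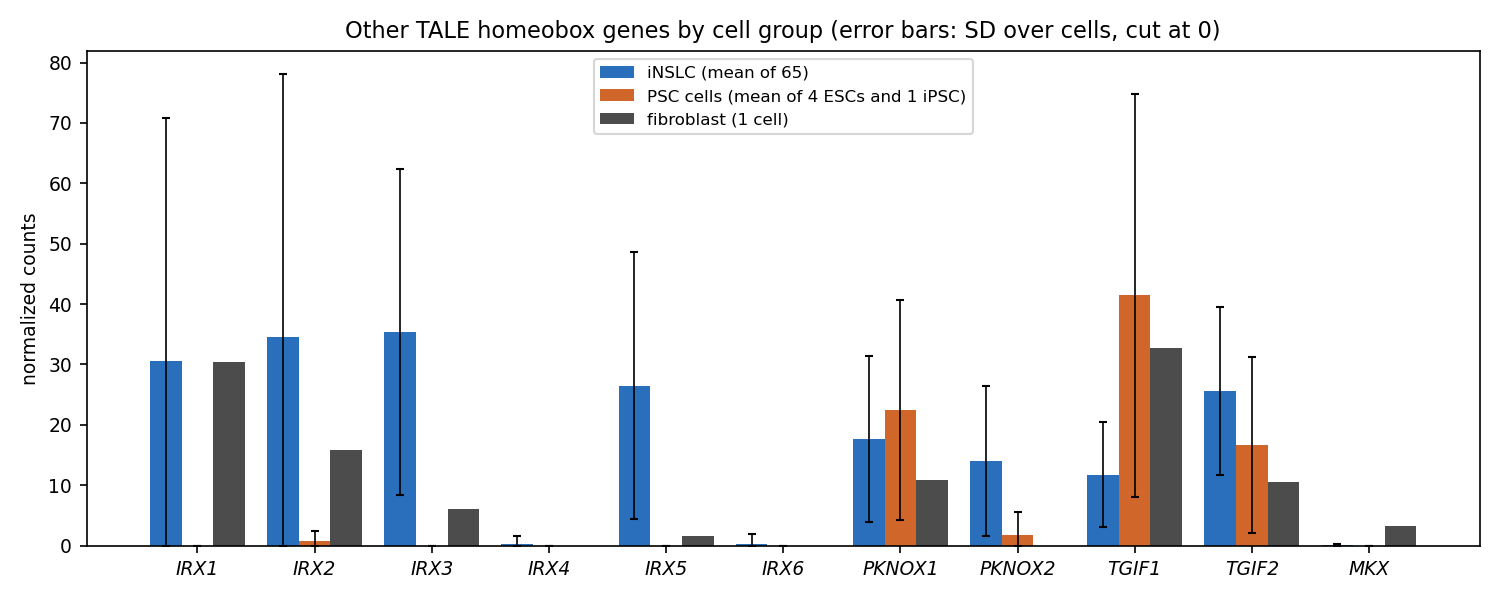
Mean normalized counts (y axis) of 11 other TALE genes (x axis) in iNSLCs, in PSC cells and in the fibroblast, with error bars of 1 SD over the cells of the iNSLCs and PSC cells, drawn down to 0 at most. *IRX3* and *IRX5* reach 35.3 and 26.5 in iNSLCs with no PSC bar, and *TGIF1* is the gene with the tallest PSC bar, at 41.5.

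Of 7 genes for proteins that bind or regulate MEIS, PBX or HOX proteins, none was higher in iNSLCs than in PSC cells by 2-fold or more, where 14.9% of all genes were, and 3 were lower, where 30.1% were. With so few genes these counts are not read as a result about the list. These were the ubiquitin ligase scaffold gene *CUL4A*, at 14.1 normalized counts in iNSLCs and 43.4 in PSC cells, the geminin gene *GMNN*, at 3.87 in iNSLCs and 15.4 in PSC cells, and the myosin gene *MYH10*, at 66.5 in iNSLCs and 139 in PSC cells. The log2 ratio of *MYH10* was -1.05, and -0.71 without ESC 11, which leaves 2 of 7 genes lower. *PBXIP1*, which encodes a protein that binds PBX proteins, averaged 15.1 in iNSLCs and 19.7 in PSC cells and was at 72.4 in the fibroblast, above all 65 iNSLCs. *CRBN*, the substrate receptor through which the CUL4 ligase marks MEIS2 in human cells, averaged 3.79 in iNSLCs and 4.80 in PSC cells and was at 3.64 in the fibroblast.

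The genes whose levels over the 65 iNSLCs were most like a member were found for *MEIS3* at higher r than for the others. They were the semaphorin gene *SEMA5B* at 0.65, *CNTFR* at 0.61, *PCBP4* at 0.60, the brain creatine kinase gene *CKB* at 0.57 and *SLC26A11* at 0.55. Over all 6113 genes compared with *MEIS3*, the 5th to 95th percentiles of r were -0.30 to 0.30. After thinning to 100000 reads, r was 0.57 for both *SEMA5B* and *CNTFR*. Within the cells numbered 56 or below and 57 or above it was 0.71 and 0.46 for *SEMA5B* and 0.59 and 0.51 for *CNTFR*. *SEMA5B* averaged 284 normalized counts in iNSLCs and 30.2 in PSC cells and had no read in the fibroblast, and *CNTFR* averaged 82.6 in iNSLCs with no read elsewhere.

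At the other end of the same ranking stood genes of the dividing cell. *NUCKS1* had an r of -0.60 with *MEIS3*, the cytokinesis gene *ECT2* -0.56 and the anaphase activator gene *CDC20* -0.53. After these were seen, 16 mitosis genes that include *ECT2* and *CDC20* were listed, and all 16 had a negative r with *MEIS3*, from -0.56 to -0.21. Since those 2 genes prompted the list, they were also left out: the other 14 had r from -0.51 to -0.21, and their sum had an r of -0.48, with -0.49 and -0.46 by set and -0.37 after thinning. With all 16 genes, the r of *MEIS3* with the summed level was -0.51, and -0.51 and -0.49 within the cells numbered 56 or below and 57 or above. It was -0.39 after thinning and -0.47 with reads held constant. The same sum had r of 0.03 with *MEIS1*, -0.11 with *MEIS2*, 0.18 with *PBX2* and -0.10 with *PBX3*. By set these moved, to -0.17 and 0.19 for *MEIS1*, -0.27 and 0.01 for *MEIS2*, 0.43 and -0.08 for *PBX2* and -0.18 and 0.02 for *PBX3*, each with the cells numbered up to 56 first. Of the 16 genes, 9 had a negative r with *MEIS1*, 15 with *MEIS2*, 4 with *PBX2* and 11 with *PBX3*. A count near 16 was thus not particular to *MEIS3*. The genes were picked with these values in view, so they are a description of these cells.

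The values of single cells show this range. Cell 47, with the highest mitosis sum at 4960 normalized counts, had 6.30 of *MEIS3*, and cell 38, with 918, had 5.75, the lowest of all. Cell 36, with the lowest mitosis sum at 3.46, had 120 of *MEIS3*. There were exceptions. Cell 86 had 103 of *MEIS3* at a mitosis sum of 2222, the next highest after cells 47 and 41, and cell 26 had 102 at a sum of 1091. *MEIS3* also had an r of -0.29 with the log10 of reads, and the part of depth in the relation was not tested beyond the thinned and partial values above.

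**Figure D5:**
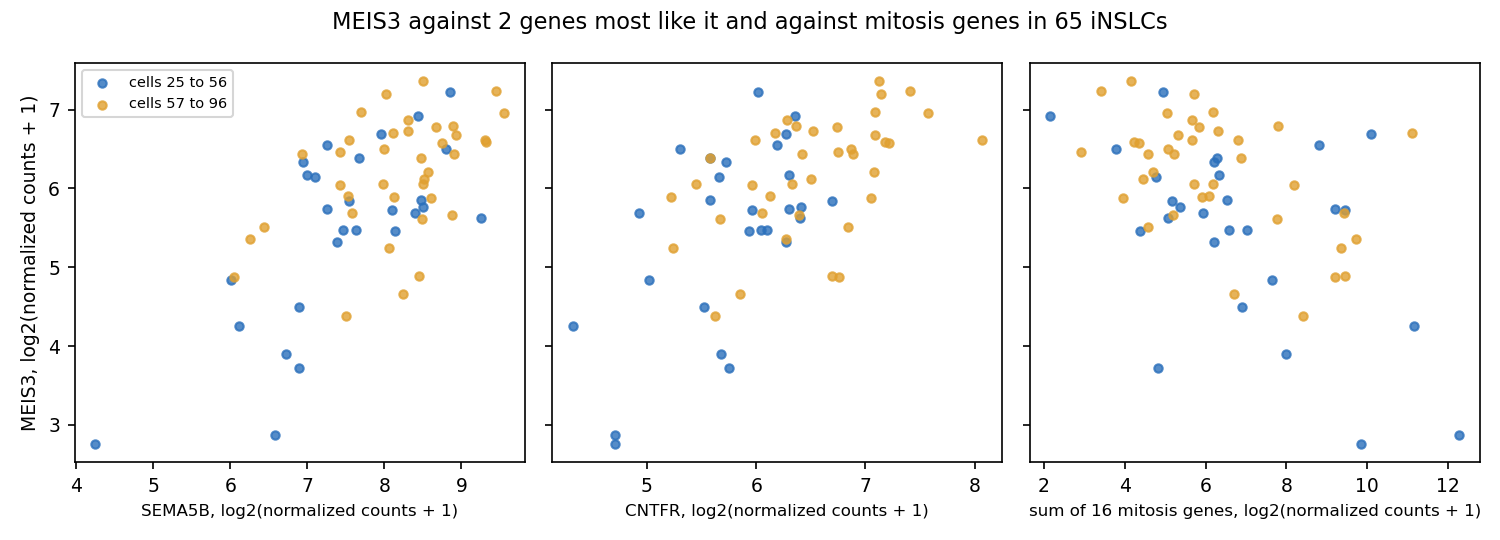
Log2 of normalized counts plus 1 of *MEIS3* (y axis) against *SEMA5B*, *CNTFR* and the sum of 16 mitosis genes (x axes, same scale), with 1 point per iNSLC, coloured by cell number. *MEIS3* is higher in cells with more *SEMA5B* (r 0.65) and *CNTFR* (0.61) and lower in cells with more mitosis gene reads (-0.51).

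The genes most like the other members reached lower values. For *MEIS1* they were *ZNF462* at 0.48, the neural secreted factor gene *NELL2* at 0.47, *LARS2*, *RANBP6* and *CCDC88A* at 0.44 each. *NELL2* had an r of 0.67 in the cells numbered 56 or below and 0.13 in those numbered 57 or above. For *MEIS2* they were *LRIG3* at 0.53, *STOX2* at 0.49, *AUTS2* at 0.47, *RELCH* and *HGSNAT* at 0.46. For *PBX2* they were *PLA2G12A* at 0.45, *WASF3* at 0.44, *PPM1B* at 0.43, *SLC25A23* at 0.42 and *EVI5* at 0.41. After thinning, *PLA2G12A* and *PPM1B* were at 0.27, *SLC25A23* at 0.26, *WASF3* at 0.41 and *EVI5* at 0.34, and *WASF3* was at 0.71 in the cells numbered 56 or below and 0.08 in those from 57 on. For *MEIS2*, *STOX2* was at 0.32 after thinning.

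For *PBX3* the list began with *CDKN1C*, which encodes an inhibitor of the cell cycle, at 0.52, or 0.50 after thinning, and 0.58 and 0.45 within the cells numbered 56 or below and 57 or above. *NRM*, *DLG5*, *SNX29* and *FBXW11* followed at 0.49, 0.43, 0.42 and 0.41, and *NRM* was at 0.29 after thinning. Nothing about shared function or control follows from these rankings, which pick the top of 6113 genes.

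Markers of other cell types were set beside the members. Over iNSLCs, the summed level of 5 neuron markers, 1.67 to 439 normalized counts, had an r of 0.31 with *MEIS1*, 0.34 with *MEIS2*, 0.16 with *MEIS3*, 0.15 with *PBX2* and 0.07 with *PBX3*. Within the cells numbered 56 or below and 57 or above it was 0.33 and 0.26 for *MEIS1* and 0.34 and 0.33 for *MEIS2*. The 9 fibroblast markers had r between -0.21 and 0.14 with the members, and *POSTN* had no read in any iNSLC. The 4 neural crest markers summed to 0 to 116, with a median of 0, and had their highest r, 0.28, with *PBX3*, and *FOXD3* had no read in any iNSLC. The part of these cell types in the levels of the members was not tested.

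Some reads may be shared with neighbours. In the RefSeq annotation of another marmoset assembly, *MEIS1* and *MEIS2* each overlap an uncharacterized gene that has its own row, *LOC118147304* for *MEIS1* and *LOC103795647* for *MEIS2*, and whether strand was used in counting is not given in the sources used here. *LOC118147304* had 42 reads in iNSLCs and none in PSC cells or the fibroblast, and *LOC103795647* had 382 in iNSLCs, none in PSC cells and 3 in the fibroblast. *MEIS1* had 5266 reads in iNSLCs and *MEIS2* had 1531. *PBX2* and *PBX3* each overlap an uncharacterized gene with no row in the table used here. How many reads were shared, moved or dropped was not tested.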

How the data were processed

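The data are single-cell RamDA-seq profiles of marmoset cells that were sorted into plates. The values in the deposited table are a signal made by the authors, read counts per gene divided by a factor of each cell. Tools listed in the submitters' processing notes are STAR 2.6.0c, Trimmomatic, Seurat 3.0.0 and featureCounts 1.5.1. A genome build and annotation were not given in the sources used here. In every cell, 100% of non-zero values were whole multiples of the value of 1 read within 0.02 of a read, so reads were recovered. No count test was run on them, since each group is 1 culture. The row with no gene name, at most 0.449% of a cell, was left out, and some genes of the lists are not reported here. No 2 cells had identical values.

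Values were computed in Python 3.11.15 with scipy 1.17.1, numpy 2.4.6 and pandas 2.3.3, and matplotlib 3.10.9 drew the plots. Ratios are of means over cells with a pseudocount of 1. Counts over all genes take those whose mean over both groups reached 1. Bounds against groups with no read use 3 reads over the group, at the average value of 1 read in its cells. Over PSC cells they are therefore not strict limits. Intervals are at 95% and allow for counting error alone, because PCR copies were not marked. Correlations use log2 values after 1 was added. The named genes are the members, listed TALE genes and partners, the HOX genes found in the most iNSLCs and, per member, the 5 genes with the highest r. The members and lists were chosen with earlier results of these data known. The steps were tested on simulated data. Alternatives were a minimum mean of 10 or of 0, a pseudocount of 10, scaling to the median total, thinning to 100000 reads (62 iNSLCs kept, 3 left out), 2 reads for detection, medians, the sets by cell number, and leaving out each PSC cell.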

Additional observations from a re-analysis of the deposited data

Results flagged for a closer look

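*MEIS2* in ESC 14 stood apart from the other ESCs, at 4.17 normalized counts where ESCs 10, 11 and 12 had 0. It was the 1 such cell among 8 measures examined over the 4 ESCs. Because the other ESCs were all at 0, even a few reads would set ESC 14 apart. How often chance gives such a cell in counts this sparse was not tested. The value rests on 5 reads.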

How the results depend on the processing

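No direction past 2-fold turned round under any alternative run. A pseudocount of 10 lowered the log2 ratio of *MEIS1* over PSC cells and over the fibroblast to 3.15 each, of *MEIS2* over PSC cells to 1.68 and of *MEIS3* over the fibroblast to 2.998, and thinning lowered that of *MEIS1* over PSC cells to 4.75. With each PSC cell left out, the log2 ratios over PSC cells were 6.32 for *MEIS1*, 3.65 to 4.68 for *MEIS2*, 1.70 to 2.79 for *MEIS3*, 0.52 to 0.81 for *PBX2* and 0.90 to 1.38 for *PBX3*. The r of *MEIS2* with the HOX number was 0.16 as Spearman's rho, 0.20 in cells numbered 56 or below and 0.32 without the 2 farthest cells, and that of *MEIS3* was -0.31 in cells numbered 56 or below. The share of iNSLCs with *PBX3* was 87.7% at 2 reads and 100% in cells numbered 56 or below. Genes higher in iNSLCs than in PSC cells numbered 2232, or 675 with a pseudocount of 10 and 913 at a mean of at least 10, and genes lower numbered 4511, or 1692 and 2157. The other values moved by less than their yardstick (the SD over iNSLCs, the 95% interval of a share, 1 standard error of r): 52 of 55 ratios over PSC cells, 23 of 25 over the fibroblast, 23 of 25 shares and 36 of 40 r. For ratios of means the SD over single cells is a wide yardstick, so these counts say little about how firm a ratio is. Within it, *PBX3* over PSC cells fell to 0.62 with a pseudocount of 10. With every cell scaled to the median total, *MEIS2* over the fibroblast rose past 2-fold to 1.11 and *PBX2* changed sign to 0.66. *MEIS1* had no PSC read, so leaving out a PSC cell could not change its ratio. No paired analysis was possible because the numbers in the labels name cells and are not shared between groups. Among PSC cells depth limits ESC 11 most, and among iNSLCs cell 69, the shallowest of all. Groups of 1 or 5 cells limit every comparison.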
